A study of Mus musculus with 23 samples.

Results

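Potassium channel genes were taken here as all genes whose symbol starts with Kcn, followed by family letters and a number. The rule found 94 gene models among 38924 in the deposited tables. They stand for 93 symbols in 20 families, because 2 models share the symbol Kcnb2. In GENCODE M21 on GRCm38, 93 of the 94 models were annotated, all as protein-coding, while the second Kcnb2 model (ENSMUSG00000090498) had no match.

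The libraries hold RNA precipitated with an antibody to haemagglutinin from spinal cords of mice aged 2 weeks. All mice carried an allele of the ribosomal protein gene Rpl22 (written Rpl+/- in the labels) that gains a haemagglutinin tag where Cre recombinase acts, on the strain background B6.CgxB6.129. ChAT-Cre acts in cholinergic cells, which include motor neurons, and C201R is a dominant mutation of Gars, which encodes glycyl-tRNA synthetase; heterozygous mice model an inherited motor neuropathy and were examined here before onset. The groups were C201R Cre (Rpl+/-;Chat+/-;C201R+/-, n = 6), WT Cre (Rpl+/-;Chat+/-;C201R+/+, n = 5), C201R no-Cre (Rpl+/-;Chat+/+;C201R+/-, n = 6) and WT no-Cre (Rpl+/-;Chat+/+;C201R+/+, n = 6). Without Cre no tagged protein is made, so those precipitates are background. Nothing in the labels says that each library came from its own animal, so the p-values speak of the spread between libraries, which may be technical.

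Potassium channels let potassium ions leave the cell and so set its resting potential, end each action potential and limit how fast a neuron fires. Pore-forming subunits assemble with one another and with cytoplasmic or membrane partners, and silent subunits form no channel alone but alter those they join. Motor neurons are known for acid-sensitive leak channels that shape their excitability, while astrocytes use inward rectifiers to clear potassium released by active neurons.

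Depth, as the sum of expected counts, was 11696397 to 14511394 in C201R Cre, 9031654 to 13636772 in WT Cre, 12042625 to 19671869 in C201R no-Cre and 12538407 to 18806506 in WT no-Cre libraries. Most of it was ribosomal RNA. The potassium channel genes together had 7247 to 27014 counts in C201R Cre, 3453 to 20383 in WT Cre, 653 to 17951 in C201R no-Cre and 5360 to 20640 in WT no-Cre libraries. The 11 motor neuron and cholinergic markers found were all higher with Cre (median log2 difference 4.67), with summed normalised counts of 206 to 683 CPM (counts scaled to a common library size) in C201R Cre and 588 to 843 CPM in WT Cre, against 31.2 to 89.2 CPM in the no-Cre libraries. Of the markers of other cells, 10 of 10 oligodendrocyte, 5 of 5 oligodendrocyte precursor, 8 of 10 astrocyte, 8 of 10 microglia, 7 of 10 endothelial and pericyte, 5 of 5 erythroid, 3 of 5 Schwann cell, 3 of 5 inhibitory and 3 of 4 excitatory interneuron genes were lower with Cre and none was higher. Over all genes 22.1% were higher and 34.7% lower. Replicates 4 and 6 of C201R Cre share the title number 18405. They and replicate 2 of WT Cre stood apart from the other 8 Cre libraries in oligodendrocyte and astrocyte markers. Their summed oligodendrocyte markers reached 5220 to 7170 and 3080 CPM, against 552 to 2140 CPM in the other 8, and their astrocyte markers 715 to 868 and 541 CPM against 281 to 382 CPM. Motor neuron markers summed to 206 to 324 CPM in the 2 C201R libraries, against 570 to 843 CPM in the other 8, and to 588 CPM in WT Cre replicate 2. Microglia markers summed to 58.4 to 166 CPM in the 2 C201R libraries. In WT Cre replicate 2 they summed to 13.9 CPM, inside the 8.96 to 28.5 CPM of the other 8. Endothelial and pericyte markers (94.3 to 228 and 64.0 CPM) overlapped those of the other 8 (6.34 to 124 CPM). Below, these 3 are called rich in glial markers for their oligodendrocyte and astrocyte sums only. Calls that changed without these 3 libraries, and called differences that moved by more than 1.5 times, are given beside the result. For the averaged Cre effect, the fit without them also left out C201R no-Cre replicate 2, which shares the title number 18405.

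Potassium channel transcripts were present in all groups at a like total level. Their summed level had a median of 686 CPM (454 to 883) in C201R Cre and 691 CPM (655 to 893) in WT Cre libraries, against 669 CPM (383 to 794) in C201R no-Cre and 727 CPM (645 to 824) in WT no-Cre libraries. The groups overlapped throughout. What differed was the composition: 17 members averaged at least 10 CPM in Cre libraries and 13 in no-Cre libraries, while 48 and 52 members averaged at least 1 CPM.

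On a scale that allows genes to be compared (level in CPM per kilobase of effective length), Kcnk9, an acid-sensitive leak channel, stood first in Cre libraries at 40.1, ranging from 14.8 to 64.7 over the 11 libraries. The next level per kilobase was that of Kcnab2 (23.7), a cytoplasmic beta subunit of the Kcna channels. Kcnab1 (12.2), another beta subunit, the silent subunit Kcng4 (11.2) and the axonal channels Kcna2 (10.7) and Kcna1 (9.28) lay below these within a narrow range. Single libraries of these last 4 genes overlapped. The effective lengths came from the deposited tables. That of Kcna1, 8.82 kb, exceeds the span of its gene in GENCODE M21 (chromosome 6, 126640397 to 126646384). The place of Kcna1 in this order is therefore uncertain. In no-Cre libraries the astrocyte inward rectifier Kcnj10 stood first at a level of 30.9 CPM per kilobase, Kcna1 stood at 10.4 and Kcna2 at 8.79, and Kcnk9 ranked 12 at 5.12.

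**Figure D1:**
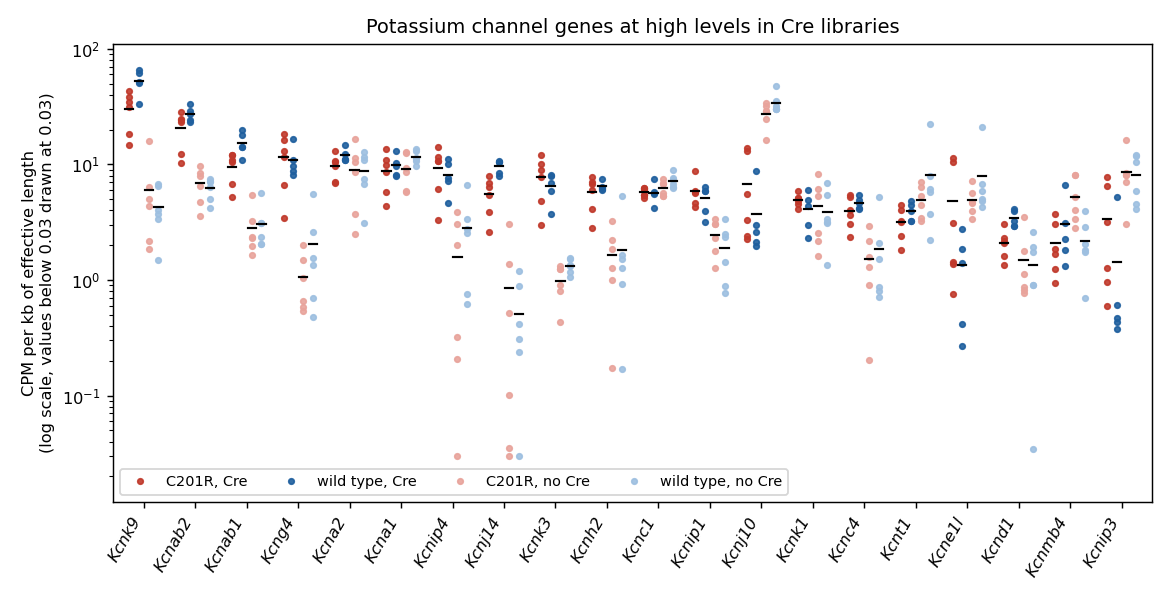
Level of 20 potassium channel genes at high levels in Cre libraries, in CPM per kilobase of effective length on a log axis, with a point per library, a bar for the group mean and values under 0.03 drawn at 0.03. Kcnk9 leads in Cre libraries (40.1), Kcnj10 in no-Cre libraries (30.9), and Kcna1, Kcna2 and Kcnc1 lie at like levels in all 4 groups.

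The comparison of Cre with no-Cre precipitates asks which channel transcripts were carried by tagged ribosomes of cholinergic cells. Averaged over both genotypes, 44 of 69 tested members differed with edgeR (adjusted p under 0.05), 22 higher and 22 lower with Cre. Over all genes 56.7% differed, 22.1% higher and 34.7% lower, against 63.8% of members, 31.9% higher and 31.9% lower. In total, members were called at about the rate of other genes, with a larger share higher and a slightly smaller share lower. This contrast was not tested. The median log2 difference was 0.03 over members and -0.28 over all genes tested. Values written with ± are means and SDs over 6 C201R Cre, 5 WT Cre, 6 C201R no-Cre or 6 WT no-Cre libraries. In these bulk precipitates, fewer cells of a type and less RNA per cell cannot be told apart. In C201R 22 of 56 members were called, 13 higher and 9 lower (33.3% of all genes, 14.1% higher and 19.2% lower), and in WT 28 of 54, 17 higher and 11 lower (46% of all genes, 20.1% higher and 26% lower). Scaling by library totals only, in place of TMM, moved the median of all genes in the average to 0.39 and called 22 members higher and 8 lower. No called member changed sign under it, but of the called members described it ended 15 calls. They were the rise of Kcnma1 and the falls of Kcna4, Kcna6, Kcnc2, Kcnd3, Kcne1l, Kcnf1, Kcnh8, Kcnip3, Kcnj6, Kcnj8, Kcnk6, Kcnk13, Kcnq5 and Kcnt1. Under it Kcnc2 stood at -0.01, Kcnd3 at -0.02, Kcnq5 at -0.09, Kcnt1 at -0.12 and Kcna6 at -0.38.

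The direction was shared between genotypes wherever both made a call. Of 54 members tested in both, 13 were higher in both, 6 were lower in both, 0 were called in opposite directions and 23 were called in neither. The matching shares over all genes were not computed, so these counts show nothing particular to the members. Among the 13 were Kcnab1, Kcnab2, Kcng4, Kcnh2, Kcnip4, Kcnj12, Kcnj14, Kcnk3 and Kcnk9, and the 6 were Kcna4, the second Kcnb2 model, Kcnh7, Kcnj10, Kcnj16 and Kcnq3. In 6 members no Cre library overlapped any no-Cre library: Kcnab2 and Kcnk3 were higher with Cre (4.17% of all genes), and Kcnmb1, Kcnj10, Kcnj16 and Kcnh7 lower (4.5%). For Kcnmb1 the nearest libraries, C201R Cre replicate 4 and WT no-Cre replicate 6, both stood at 0.22 CPM, on 6 and 5 counts.

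Of the 94 models, 25 had too few counts to be tested in this average, with totals over the 23 libraries of 1 to 116 and a median of 27. They were Kcna7, Kcna10, Kcne1, Kcne2, Kcne3, Kcne4, Kcng2, Kcng3, Kcnh3, Kcnh4, Kcnj1, Kcnj4, Kcnj5, Kcnj15, Kcnk7, Kcnk15, Kcnk16, Kcnk18, Kcnmb2, Kcnmb3, Kcnn4, Kcnq1, Kcnu1, Kcnv1 and Kcnv2. Several of these are known from heart, kidney, other epithelia or testis.

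**Figure D2:**
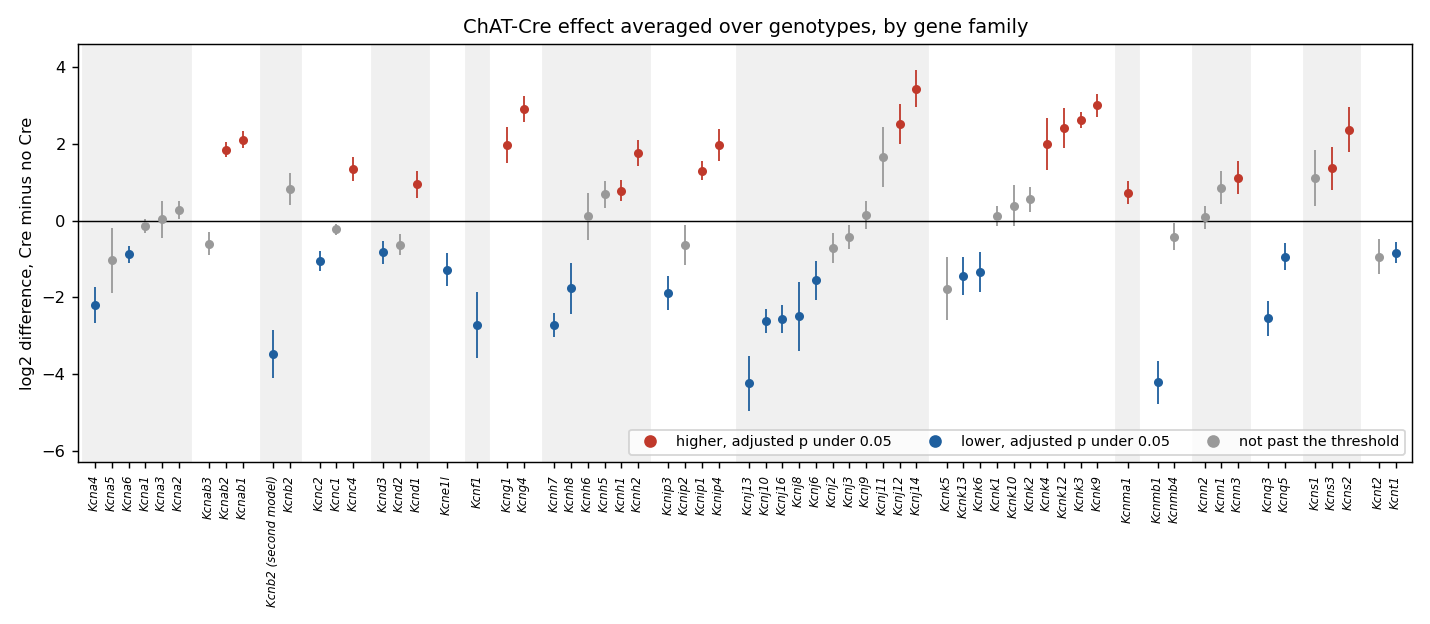
Log2 difference between Cre and no-Cre libraries averaged over genotypes for 65 of the 69 tested members, grouped by family on shaded bands, with bars of 1 SE and colours for edgeR calls. The values run from -4.24 (Kcnj13) to 3.44 (Kcnj14), and both directions occur within the Kcnc, Kcnd, Kcnh, Kcnip, Kcnj and Kcnk families.

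Promoters are shown for 5 of the called members, chosen after their values were seen: Kcng4 and Kcnh2, higher with Cre, and Kcnj10, Kcnh7 and Kcnmb1, lower with Cre. Each is the 250 bases before the annotated start in RefSeq on GRCm38.p6, read 5′ to 3′ on the gene's strand, with the GC box GGGCGG on either strand in capitals. The Kcnh2 window precedes a RefSeq start that lies inside the GENCODE gene. The windows lie at chr8:119635681-119635930 (minus strand, Kcng4), chr5:24329592-24329841 (minus, Kcnh2), chr1:172340960-172341209 (plus, Kcnj10), chr2:63184288-63184537 (minus, Kcnh7) and chr11:33962763-33963012 (plus, Kcnmb1).

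Kcng4: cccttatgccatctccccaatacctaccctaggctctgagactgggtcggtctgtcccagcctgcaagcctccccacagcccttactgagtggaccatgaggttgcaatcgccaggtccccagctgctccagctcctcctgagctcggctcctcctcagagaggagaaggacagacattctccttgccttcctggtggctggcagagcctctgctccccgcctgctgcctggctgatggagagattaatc

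Kcnh2: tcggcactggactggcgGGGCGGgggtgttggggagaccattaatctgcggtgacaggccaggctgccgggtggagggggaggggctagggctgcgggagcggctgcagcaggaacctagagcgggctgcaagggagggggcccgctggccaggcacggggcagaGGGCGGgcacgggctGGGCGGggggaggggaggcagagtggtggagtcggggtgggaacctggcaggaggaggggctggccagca

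Kcnj10: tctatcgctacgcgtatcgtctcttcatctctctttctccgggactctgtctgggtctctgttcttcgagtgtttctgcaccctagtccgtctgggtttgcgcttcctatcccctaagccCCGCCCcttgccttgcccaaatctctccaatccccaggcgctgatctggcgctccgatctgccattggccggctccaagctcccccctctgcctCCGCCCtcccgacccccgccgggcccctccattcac

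Kcnh7: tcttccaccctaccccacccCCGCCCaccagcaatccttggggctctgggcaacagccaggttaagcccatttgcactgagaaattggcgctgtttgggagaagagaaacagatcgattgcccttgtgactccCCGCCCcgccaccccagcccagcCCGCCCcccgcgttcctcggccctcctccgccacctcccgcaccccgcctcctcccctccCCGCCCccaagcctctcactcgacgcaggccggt

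Kcnmb1: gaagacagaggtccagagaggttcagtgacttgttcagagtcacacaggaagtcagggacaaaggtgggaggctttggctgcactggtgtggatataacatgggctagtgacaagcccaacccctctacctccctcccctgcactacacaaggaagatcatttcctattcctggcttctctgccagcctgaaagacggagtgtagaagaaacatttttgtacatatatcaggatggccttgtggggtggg

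GC boxes were found in windows of both directions. Kcng4 held 0 boxes and 4 CpG sites, Kcnh2 held 3 and 14, Kcnj10 held 2 and 17, Kcnh7 held 4 and 16, and Kcnmb1 held 0 and 1. None of the 5 held TATAAA, the homeodomain motif TAATTA or the cyclic AMP response element TGACGTCA on either strand. RefSeq windows were matched for 68 of the 93 symbols, 93 windows in all. The GC box stood in 45.2% of these and in 32.7% of all 32851 windows, TATAAA in 3.23% and 12.4%, TAATTA in 0% and 4.84%, and TGACGTCA in 0% and 1.55%. The median number of CpG sites was 7 in member windows and 6 in all windows. A match describes the letters only.

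Among leak channels of the Kcnk family, 4 of 10 tested members were higher with Cre and 2 were lower. Kcnk9 (chromosome 15, 72501089 to 72546340) stood at 15.7 to 45.3 CPM (median 35.1) in C201R Cre and at 35.6, 53.7, 54.2, 65.3 and 68.8 CPM in WT Cre libraries, against 1.96 to 17.0 CPM (median 4.96) in C201R no-Cre and 1.59 to 7.11 CPM (median 4.10) in WT no-Cre libraries. All Cre libraries were above all no-Cre libraries but 1, as C201R no-Cre replicate 4 exceeded C201R Cre replicate 6. The averaged log2 difference was 3.00 (SE 0.30, edgeR adjusted p = 4.8e-09).

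Kcnk3, a close relative of Kcnk9 that can form mixed channels with it, differed by 2.62 (SE 0.22, adjusted p = 3.14e-10), the smallest adjusted p among members. Its level was 11 to 44.2 CPM (median 30.4) in C201R Cre and 13.7, 21.6, 25.1, 29.1 and 29.8 CPM in WT Cre libraries, against 1.58 to 4.8 CPM (median 3.91) and 3.91 to 5.62 CPM (median 4.89) in C201R and WT no-Cre libraries. No Cre library overlapped a no-Cre library. Kcnk12, a leak subunit largely silent on its own, averaged 1.83 ± 0.461 CPM in C201R Cre (SD, n = 6) and 2.96 ± 1.70 CPM in WT Cre libraries (n = 5), against 0.429 ± 0.563 and 0.417 ± 0.332 CPM in C201R and WT no-Cre libraries (n = 6 each), a log2 difference of 2.42 (SE 0.52, adjusted p = 0.000269). Kcnk4, a mechanically gated leak channel, was also higher (1.99, SE 0.67, adjusted p = 0.0127), at levels under 1 CPM in each group mean.

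The other tested Kcnk members did not share this rise. Kcnk1, a weak leak channel, averaged 10.6 ± 1.32 and 8.85 ± 3.21 CPM in C201R and WT Cre libraries, against 9.30 ± 5.65 and 8.33 ± 4.19 CPM in C201R and WT no-Cre libraries (0.13, SE 0.26, adjusted p = 0.695). Kcnk13, a leak channel known from microglia, was lower with Cre (-1.45, SE 0.49, adjusted p = 0.0125), as was Kcnk6 (-1.33, SE 0.52, adjusted p = 0.0315). The Kcnk6 call was lost on leaving out any 1 of 11 libraries (C201R Cre 1, 2, 3 or 5, WT Cre 1, 2 or 3, C201R no-Cre 2 or 3, WT no-Cre 5 or 6), at -1.28 to -1.07. Kcnk2 (0.55), Kcnk5 (-1.78) and Kcnk10 (0.39) were not called.

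Inward rectifiers of the Kcnj family split by member, with 2 of 11 higher and 5 lower. Kcnj14, a strong inward rectifier, had the largest rise of all tested members, 3.44 (SE 0.49, adjusted p = 1.29e-06). It stood at 6.58 to 20.0 CPM (median 14.8) in C201R Cre and at 20.1, 21.2, 26.1, 26.4 and 27 CPM in WT Cre libraries, against 0 to 7.69 CPM (median 0.773) in C201R no-Cre and 0 to 3.01 CPM (median 0.913) in WT no-Cre libraries. C201R no-Cre replicate 6 alone overlapped the Cre range, above C201R Cre replicate 6. Kcnj12, another strong inward rectifier, averaged 1.88 ± 0.827 and 3.19 ± 0.866 CPM in C201R and WT Cre libraries, against 0.143 ± 0.283 and 0.851 ± 0.633 CPM in C201R and WT no-Cre libraries (2.51, SE 0.52, adjusted p = 0.000201).

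Kcnj10, the main inward rectifier of astrocytes, and Kcnj16, which joins it in mixed channels, were both lower with Cre. Kcnj10 (chromosome 1, 172341210 to 172374085) stood at 11.8 to 72.4 CPM (median 23.2) in C201R Cre and at 10.3, 11.2, 13.7, 15.8 and 46.2 CPM in WT Cre libraries, against 86.2 to 180 CPM (median 152) and 157 to 253 CPM (median 164) in C201R and WT no-Cre libraries. All Cre libraries lay below all no-Cre libraries (-2.62, SE 0.31, adjusted p = 6.72e-08). Kcnj16 averaged 2.52 ± 1.63 and 1.25 ± 1.41 CPM in C201R and WT Cre libraries, against 10.2 ± 3.71 and 11.6 ± 4.01 CPM in C201R and WT no-Cre libraries (-2.56, SE 0.36, adjusted p = 1.08e-06), again without overlap. Within the Cre libraries both were highest in the 3 libraries rich in glial markers: Kcnj10 stood at 46.2 to 72.4 CPM in those 3 against 10.3 to 28.9 CPM in the other 8, and Kcnj16 at 3.73 to 4.72 CPM against 0.227 to 2.36 CPM. Without the 3 libraries and C201R no-Cre replicate 2 the averaged differences were -3.27 for Kcnj10 and -3.18 for Kcnj16.

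Kcnj13, known from choroid plexus and other epithelia, was nearly absent with Cre, averaging 0.0211 ± 0.0257 and 0.0594 ± 0.0822 CPM in C201R and WT Cre libraries, against 0.788 ± 0.866 and 0.828 ± 0.491 CPM in C201R and WT no-Cre libraries (-4.24, SE 0.71, adjusted p = 1.41e-05). Kcnj8, the pore subunit of ATP-sensitive channels in vessel walls, was called lower (-2.50, SE 0.91, adjusted p = 0.0204), but its level exceeded 2 CPM in 1 library alone, 10.0 CPM in WT no-Cre replicate 3. Without that library the difference was -1.5 and the call was lost (adjusted p = 0.12). Without WT Cre replicate 2 it was -4.03. Leaving out the 3 libraries rich in glial markers and C201R no-Cre replicate 2 gave -4.56 (adjusted p = 0.00716). Kcnj6, a G protein-gated rectifier, was lower (-1.56, SE 0.50, adjusted p = 0.00982), while its partners Kcnj3 (-0.43) and Kcnj9 (0.15), the classical rectifier Kcnj2 (-0.71) and the ATP-sensitive pore subunit Kcnj11 (1.65, adjusted p = 0.0725) were not called. The uncalled Kcnj9 lies 11.9 kb from Kcnj10, and the uncalled Kcnj2 lies 38.2 kb from Kcnj16.

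Silent subunits that join the Kcnb channels went both ways. Both tested Kcng members and 2 of 3 Kcns members were called higher with Cre, while Kcnf1 was called lower. Kcng4 stood at 11.3 to 61.0 CPM (median 40.8) in C201R Cre and at 26.9, 28.7, 31.8, 35.9 and 55.1 CPM in WT Cre libraries, against 1.76 to 6.57 CPM (median 2.78) and 1.59 to 18.1 CPM (median 4.79) in C201R and WT no-Cre libraries (2.90, SE 0.34, adjusted p = 5.15e-08). All Cre libraries but C201R Cre replicate 6 lay above all no-Cre libraries. Kcng1 averaged 1.74 ± 1.03 and 2.22 ± 1.06 CPM in C201R and WT Cre libraries, against 0.640 ± 0.828 and 0.335 ± 0.151 CPM in C201R and WT no-Cre libraries (1.97, SE 0.47, adjusted p = 0.000744). Kcns2 (2.37, SE 0.58, adjusted p = 0.00109) and Kcns3 (1.36, SE 0.56, adjusted p = 0.041) were higher at levels of at most 3.08 CPM in any group mean. Kcns1 was not called (1.12). The Kcns3 call was lost on leaving out WT Cre 5, C201R no-Cre 4, 5 or 6, or WT no-Cre 1 or 3, at 1.15 to 1.28. It was also lost without the 3 libraries rich in glial markers and C201R no-Cre replicate 2 (1.50, adjusted p = 0.0538). Kcnf1 differed by -2.72 (SE 0.86, adjusted p = 0.00849), with 3.23 CPM in C201R no-Cre replicate 4 and 5.58 and 6.56 CPM in WT no-Cre replicates 6 and 2, and at most 0.845 CPM in the other 20 libraries.

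For Kcnb2, a delayed rectifier that these silent members join, the deposited tables hold 2 models that may share reads. The annotated model (ENSMUSG00000092083) was not called (0.82, SE 0.41, adjusted p = 0.0851), though it was with DESeq2 (0.88, adjusted p = 0.0356) and on leaving out C201R Cre 4 or 6 or WT no-Cre 4, 5 or 6 (0.98 to 1.05). It was also called higher without the 3 libraries rich in glial markers and C201R no-Cre replicate 2 (1.11, adjusted p = 0.0489). By contrast, the second model was called lower (-3.48, SE 0.63, adjusted p = 3.38e-05), averaging 0.308 ± 0.347 and 0.164 ± 0.327 CPM in C201R and WT Cre libraries, against 3.21 ± 2.17 and 2.69 ± 1.97 CPM in C201R and WT no-Cre libraries. With both summed, an alternative chosen after seeing the data, Kcnb2 differed by -0.48 (SE 0.34, adjusted p = 0.233), so no direction is given for it.

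Channels of the axon and their partners went separate ways. Kcna1 and Kcna2, which form low-threshold channels beside nodes of Ranvier, had high levels in all groups. Kcna1 averaged 77.9 ± 30.0 and 86.7 ± 18.8 CPM in C201R and WT Cre libraries, against 80.8 ± 27.3 and 102 ± 13.0 CPM in C201R and WT no-Cre libraries (-0.15, SE 0.18, adjusted p = 0.512). Kcna2 averaged 31.8 ± 7.67 and 39.8 ± 5.32 CPM in C201R and WT Cre libraries, against 29.3 ± 17.2 and 28.9 ± 11.9 CPM in C201R and WT no-Cre libraries (0.28, SE 0.24, adjusted p = 0.323). The groups overlapped for both genes, and the sign for Kcna1 changed under 4 settings. Kcna4 (-2.20, SE 0.47, adjusted p = 0.000241), which gives fast inactivating currents, and Kcna6 (-0.88, SE 0.22, adjusted p = 0.00113) were lower with Cre, while Kcna3 (0.03) and Kcna5 (-1.04) were not called.

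The beta subunits that bind Kcna channels were higher for 2 of 3 members. Kcnab2 stood at 23.5 to 64.6 CPM (median 54.2) in C201R Cre and at 53.4, 55.6, 61.8, 65.9 and 75.7 CPM in WT Cre libraries, against 8.21 to 22.2 CPM (median 16.5) and 9.56 to 17.0 CPM (median 15.3) in C201R and WT no-Cre libraries. No Cre library overlapped a no-Cre library (1.85, SE 0.19, adjusted p = 6.68e-09). Kcnab1 stood at 13.2 to 30.2 CPM (median 26.8) in C201R Cre and at 27.4, 35.3, 35.5, 45.3 and 49.5 CPM in WT Cre libraries, against 4.11 to 13.5 CPM (median 5.84) and 5.14 to 14.1 CPM (median 6.86) in C201R and WT no-Cre libraries (2.10, SE 0.22, adjusted p = 8.19e-09). WT no-Cre replicate 1 and C201R no-Cre replicate 5 exceeded the lowest Cre library. Kcnab3 was not called (-0.60, adjusted p = 0.0873).

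**Figure D3:**
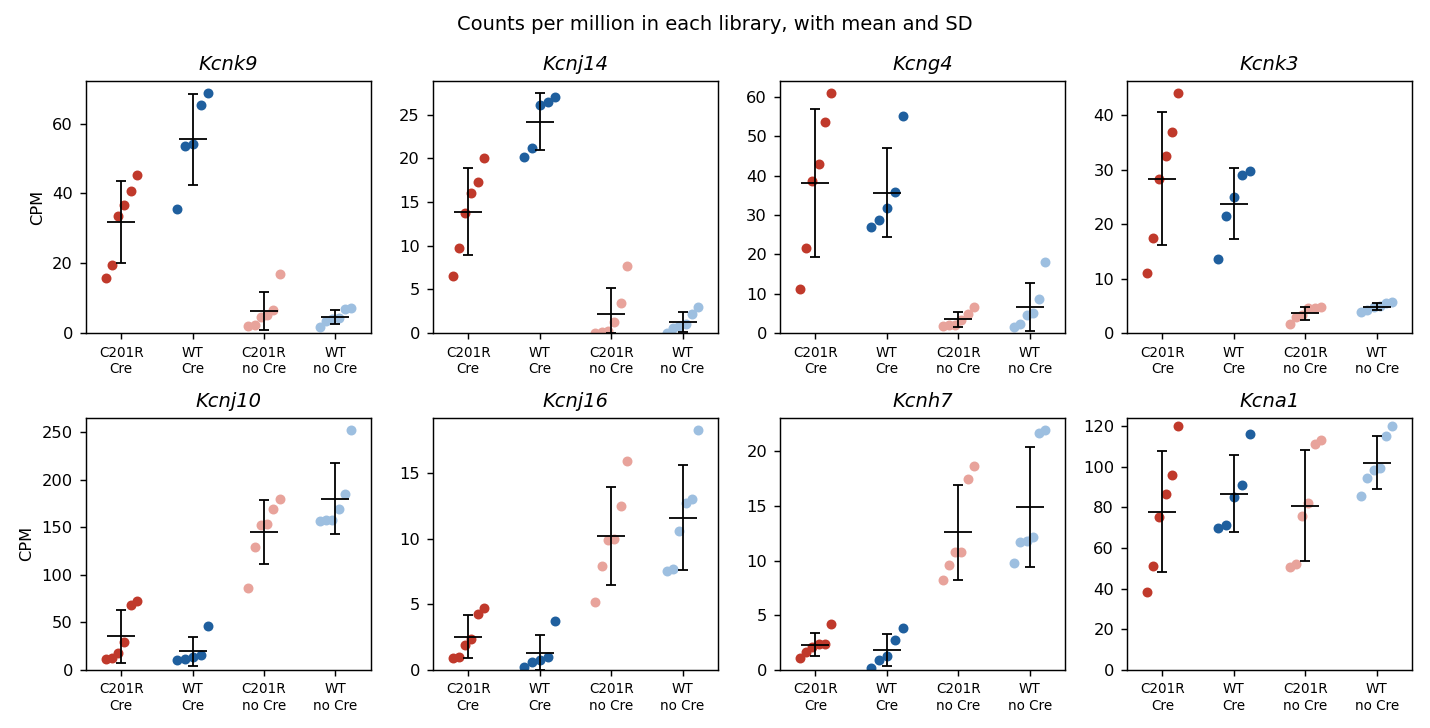
CPM in each library for 8 members, with bars for mean and SD, in C201R Cre (n = 6), WT Cre (n = 5), C201R no-Cre (n = 6) and WT no-Cre (n = 6). Kcnk9, Kcnj14, Kcng4 and Kcnk3 are higher with Cre, Kcnj10, Kcnj16 and Kcnh7 lower, and Kcna1 averages 77.9 to 102 CPM in the 4 groups.

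Fast channels of the Kcnc family, which allow high firing rates, were called in both directions. Kcnc4 averaged 11.3 ± 3.42 and 13.4 ± 1.63 CPM in C201R and WT Cre libraries, against 4.33 ± 2.74 and 5.37 ± 4.98 CPM in C201R and WT no-Cre libraries (1.34, SE 0.31, adjusted p = 0.000607). Kcnc2, known from fast-spiking interneurons, was lower (-1.06, SE 0.26, adjusted p = 0.0012), and Kcnc1 was not called (-0.23, SE 0.14, adjusted p = 0.149), with levels of 17.6 to 37.7 CPM over all 23 libraries.

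The A-type Kcnd channels and their calcium-binding Kcnip partners also divided. Kcnip4 averaged 12.6 ± 5.27 and 11 ± 3.46 CPM in C201R and WT Cre libraries, against 2.12 ± 2.22 and 3.76 ± 2.95 CPM in C201R and WT no-Cre libraries (1.97, SE 0.41, adjusted p = 0.000193). Kcnip1 was higher by 1.30 (SE 0.24, adjusted p = 5.77e-05), and Kcnip2 was not called (-0.63). Kcnip3, which also acts as a transcriptional repressor, was lower (-1.89, SE 0.45, adjusted p = 0.000763) and stood at 11 to 16.4 CPM in the 3 Cre libraries rich in glial markers against 0.793 to 6.66 CPM in the other 8. Without those 3 and C201R no-Cre replicate 2 its difference was -3.14. Among pore subunits Kcnd1 was higher (0.94, SE 0.34, adjusted p = 0.0188), Kcnd3 lower (-0.83, SE 0.30, adjusted p = 0.0207) and Kcnd2 not called (-0.63, adjusted p = 0.0523). Kcnd2 was called with DESeq2 (-0.59, adjusted p = 0.0339) and on leaving out WT Cre 5, C201R no-Cre 4 or 5, or WT no-Cre 1 or 3, at -0.70 to -0.66. The Kcnd3 call was lost on leaving out C201R Cre 1, 3, 4, 5 or 6, C201R no-Cre 2, 3 or 4, or WT no-Cre 1 or 5, at -0.72 to -0.60. It was also lost without the 3 libraries and C201R no-Cre replicate 2 (-0.68, adjusted p = 0.0981).

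The ether-a-go-go related Kcnh family held members at both ends. Kcnh2, a channel that resists repetitive firing and repolarises heart muscle, averaged 19.7 ± 6.56 and 22 ± 1.96 CPM in C201R and WT Cre libraries, against 5.54 ± 3.60 and 6.18 ± 6.19 CPM in C201R and WT no-Cre libraries (1.77, SE 0.34, adjusted p = 7.13e-05). Kcnh7, its close relative, stood at 1.10 to 4.22 CPM (median 2.19) in C201R Cre and at 0.198, 0.909, 1.28, 2.73 and 3.86 CPM in WT Cre libraries, against 8.21 to 18.7 CPM (median 10.8) and 9.80 to 22 CPM (median 12) in C201R and WT no-Cre libraries. No Cre library overlapped a no-Cre library (-2.73, SE 0.31, adjusted p = 3.82e-08). Kcnh1 was higher (0.78, SE 0.28, adjusted p = 0.0203), Kcnh8 lower (-1.77, SE 0.66, adjusted p = 0.0241), and Kcnh5 (0.68) and Kcnh6 (0.11) were not called. Without the 3 libraries rich in glial markers and C201R no-Cre replicate 2, Kcnh5 was called higher (0.96, adjusted p = 0.0427). The Kcnh8 call was lost without WT no-Cre replicate 5 (-1.35) or 6 (-1.53) and without C201R no-Cre replicate 6 (-1.53). It was also lost without the 3 libraries rich in glial markers and C201R no-Cre replicate 2 (-1.87, adjusted p = 0.0538).

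Of the channels that carry the M-current, which damps excitability, Kcnq3 and Kcnq5 were lower. Kcnq3 averaged 8.77 ± 6.01 and 4.62 ± 4.36 CPM in C201R and WT Cre libraries, against 32.4 ± 30.3 and 44.2 ± 28.0 CPM in C201R and WT no-Cre libraries (-2.55, SE 0.45, adjusted p = 2.36e-05). The groups overlapped, since C201R no-Cre replicate 5 stood at 2.93 CPM and C201R Cre replicate 5 at 19.4 CPM. Kcnq5 was called lower (-0.94, SE 0.35, adjusted p = 0.0227). The Kcnq5 call was lost on leaving out C201R Cre 1, 3, 4, 5 or 6, WT Cre 3, C201R no-Cre 1 or 2, or WT no-Cre 2 or 6, at -0.85 to -0.73. It was also lost without the 3 libraries rich in glial markers and C201R no-Cre replicate 2 (-0.81, adjusted p = 0.103).

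Among channels opened by calcium or sodium and their partners, calls went both ways. Kcnma1, the large-conductance calcium-activated channel, was called higher (0.73, SE 0.31, adjusted p = 0.0432). That call did not hold on leaving out WT Cre 4 or 5, C201R no-Cre 1, 4, 5 or 6, or WT no-Cre 1, 2 or 3, at 0.63 to 0.74. Its smooth muscle partner Kcnmb1 averaged 0.115 ± 0.0788 and 0.0730 ± 0.0712 CPM in C201R and WT Cre libraries, against 1.67 ± 0.761 and 2.42 ± 1.78 CPM in C201R and WT no-Cre libraries (-4.21, SE 0.56, adjusted p = 3.92e-07). The nearest Cre and no-Cre libraries of Kcnmb1 both stood at 0.22 CPM, so its lack of overlap rests on few counts. Kcnmb1 (chromosome 11, 33963013 to 33973641, plus strand) lies within Kcnip1 (33629339 to 33993152, minus strand), and whether the counting used strand is not given in the sources used here, so reads of this pair are uncertain. The neuronal partner Kcnmb4 was not called (-0.42). Of the small-conductance channels behind the afterhyperpolarisation, Kcnn3 was higher (1.12, SE 0.43, adjusted p = 0.0259), a call lost without WT Cre replicate 5 (1.01, adjusted p = 0.057), and Kcnn1 (0.86) and Kcnn2 (0.08) were not called. Kcnt1, a sodium-activated channel, was lower (-0.84, SE 0.27, adjusted p = 0.0105), a call lost without C201R no-Cre replicate 3 (-0.65). It was also lost without the 3 libraries rich in glial markers and C201R no-Cre replicate 2 (-0.62, adjusted p = 0.0973). Kcnt2 was not called with edgeR (-0.94, adjusted p = 0.0825), but was called lower without C201R no-Cre 5 or WT no-Cre 2 (-1.04 in both). Kcnt2 was also called lower with limma-voom (-1.3, adjusted p = 0.00633) and with the title number as a block in edgeR (-1.73, adjusted p = 0.0131). The ancillary subunit Kcne1l was lower (-1.28, SE 0.43, adjusted p = 0.0129). It stood at 3.86 to 16 CPM in the 3 libraries rich in glial markers against 0.377 to 4.37 CPM in the other 8. Without those 3 and C201R no-Cre replicate 2 its averaged difference was -2.18.

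Grouped by cell type, the lists of channels did not move alike. Over all genes 22.1% were higher and 34.7% lower with Cre. Of 24 models in a list of motor neuron channels 8 were higher and 7 lower, with a median log2 difference of -0.02, against -0.28 for all genes. Of 7 tested channels in a list of glia and vessels (Kcnj8, Kcnj10, Kcnj13, Kcnj16, Kcna3, Kcnk6 and Kcnk13) 6 were lower and none was higher, with a median of -2.50. Their list, with the untested Kcne4 and Kcnn4, summed to 13.7 to 81.2 CPM (median 28.0) in C201R Cre and 11.9 to 51.8 CPM (median 16.6) in WT Cre libraries, against 107 to 198 CPM (median 168) and 169 to 262 CPM (median 185) in C201R and WT no-Cre libraries. The highest sums among Cre libraries were those of the 3 libraries rich in glial markers. Without the 3 libraries and C201R no-Cre replicate 2, 41 of 68 tested members were called in the average, 23 higher and 18 lower (56.2% of all genes, 23.9% and 32.3%). The rises of Kcnk9, Kcnj14, Kcng4 and Kcnk3 were then 3.27, 3.63, 3.19 and 2.95, larger than with all libraries.

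**Figure D4:**
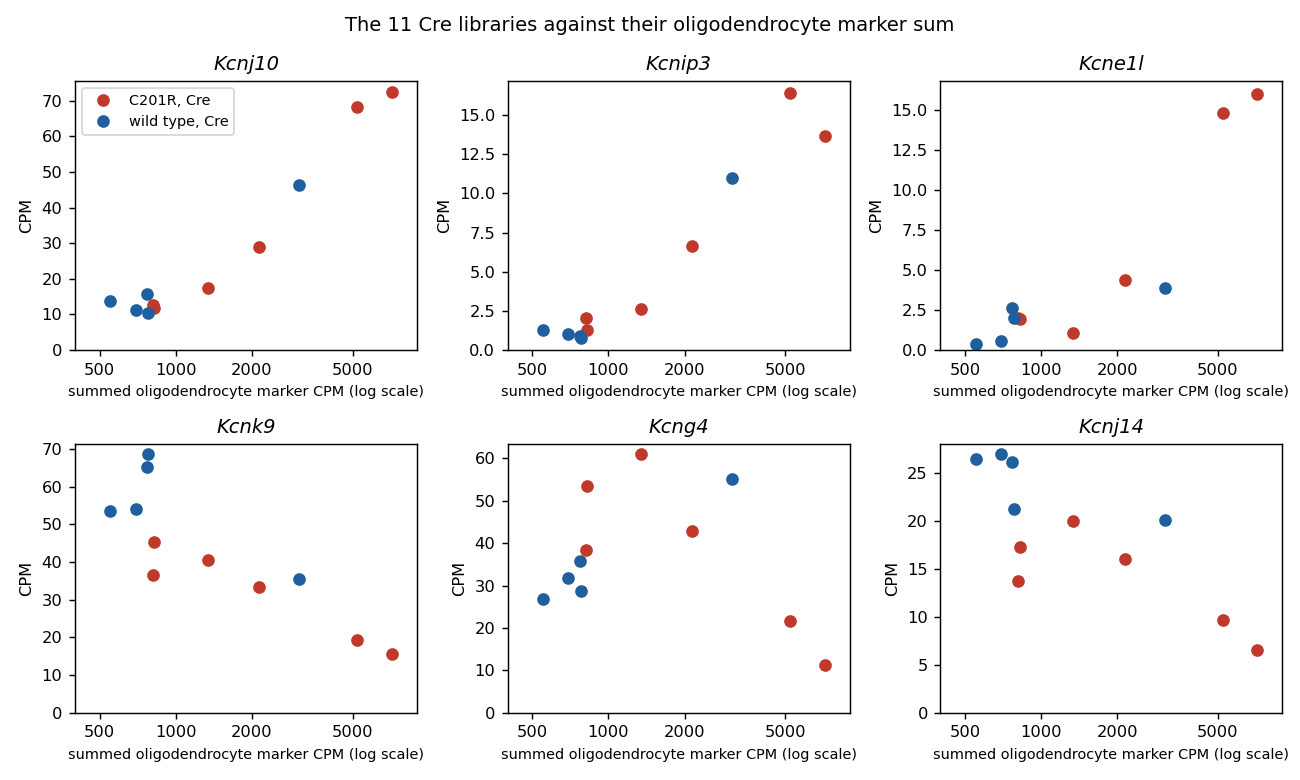
CPM of 6 members in the 11 Cre libraries against the summed CPM of 10 oligodendrocyte markers on a log axis, with a point per library. Kcnj10, Kcnip3 and Kcne1l are highest in the libraries with sums of 5220 to 7170 CPM, and Kcnk9, Kcng4 and Kcnj14 are lowest there.

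Other genes of potassium handling that the naming rule does not cover were also called in both directions. Of 33 tested genes in this list 17 were higher and 7 lower, with a median of 0.54. Over all genes 22.1% were higher and 34.7% lower, with a median of -0.28. Of the channels opened by hyperpolarisation, Hcn2 (0.19), Hcn3 (0.17) and Hcn4 (0.30) were not called. Of the beta subunits of the sodium-potassium pump, Atp1b1 was higher (1.95) and Atp1b2, known from glia, was lower (-1.86). The chloride transporter Slc12a5 of mature neurons was higher (1.06) and Slc12a2 lower (-2.22). Calm2 (2.76) and Calm3 (1.23), which encode calmodulin, an obligate partner of the Kcnq and Kcnn channels, were higher. The proteins that cluster Kcna channels included Cntnap2 (1.00) and Cntn2 (1.17), higher with Cre, and Lgi1 (-1.66), lower. Both partners of the Kcnd channels, Dpp6 (0.54) and Dpp10 (0.59), were higher, and the vascular receptor subunit Abcc9 was lower (-2.31).

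Comparing C201R Cre with WT Cre libraries asks what the Gars mutation changes in cholinergic cells before disease onset. With edgeR, 0 of 57 tested members were called (0.331% of all genes, 0.234% higher and 0.0969% lower), and 9 had an unadjusted p under 0.05, against 2114 of 12388 genes. Differences ran from -1.12 to 1.85 on the log2 scale, 53 of 57 within 1 in either direction, with a median SE of 0.33. Of these, 31 were below 0, 24 above 0 and 2 at 0.00. The smallest adjusted p among members was 0.133, so differences of the size seen were not resolved at this depth and spread.

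The 4 smallest p-values belonged to genes lower in C201R, 3 of them among the 10 largest rises with Cre. Kcnd1 stood at 5.45 to 12.3 CPM (median 8.64) in C201R Cre and at 11.7, 11.7, 13.1, 16 and 16.7 CPM in WT Cre libraries (-0.72, SE 0.20, adjusted p = 0.133). A single C201R library, replicate 2, reached into the WT range. Kcnj14, whose values in each library are given above, was the only tested member without overlap, with 20.0 CPM in the highest C201R Cre and 20.1 CPM in the lowest WT Cre library (-0.82, SE 0.23, adjusted p = 0.135). Over all genes 1.19% were lower in C201R and 1.09% higher without overlap. Kcnk9 averaged 31.9 ± 11.8 CPM in C201R Cre and 55.5 ± 13.0 CPM in WT Cre libraries (-0.82, SE 0.26, adjusted p = 0.174), and Kcnab1 averaged 24.0 ± 7.13 CPM in C201R Cre and 38.6 ± 8.80 CPM in WT Cre libraries (-0.70, SE 0.23, adjusted p = 0.178). In the direction of higher levels, Kcnt2 averaged 2.36 ± 0.967 CPM in C201R Cre and 0.770 ± 0.651 CPM in WT Cre libraries (1.52, SE 0.54, adjusted p = 0.201). Kcna6 averaged 7.20 ± 0.965 CPM in C201R Cre and 5.00 ± 0.845 CPM in WT Cre libraries (0.52, SE 0.20, adjusted p = 0.225), with 1 C201R library inside the WT range.

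The 3 libraries rich in glial markers bear on this comparison, since 2 are C201R and 1 is WT. They were singled out by values of these same data, so fits without them are not separate tests. Motor neuron markers had a median log2 difference of -0.59 and oligodendrocyte markers of 1.43, with 0 of 11 and 0 of 10 called. Without the 3 libraries, which leaves 4 against 4, 8 of 55 members were called (10.9% of all genes): Kcnk9 (-0.67, SE 0.15, adjusted p = 0.0152), Kcnj14 (-0.64, 0.0213), Kcnd1 (-0.61, 0.0486) and Kcnab1 (-0.58, 0.0303) lower in C201R, and Kcnt2 (2.18, 0.0242), Kcnq3 (1.89, 0.0131), Kcnd3 (1.03, 0.0283) and Kcng4 (0.63, 0.03) higher. Without WT Cre replicate 2 alone 5 of 57 were called (8.44% of all genes), Kcnd1, Kcnj14, Kcnk9 and Kcnab1 lower at -0.80, -0.90, -0.96 and -0.82 and Kcnip3 higher at 2.79, while without both libraries of title number 18405 alone 0 were called. DESeq2 called 2 members, Kcnd1 (-0.73, adjusted p = 0.043) and Kcnj14 (-0.83, adjusted p = 0.0403), beside 3.26% of all genes, and limma-voom called 5 beside 7.02%. The share of members called was 3.51% with DESeq2, 8.77% with limma-voom, 8.77% without WT Cre replicate 2 and 14.5% without the 3 libraries. The shares of all genes in the same order were 3.26%, 7.02%, 8.44% and 10.9%. Whether members and all genes differed in these shares was not tested.

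Within the title numbers that hold both genotypes, 2 libraries were compared with 2 each. In both numbers 6 genes (Kcnk9, Kcnj14, Kcnd1, Kcnab1, Kcnt2 and Kcna6) differed in the same direction. The 6 had been chosen by smallest p-value in a fit that held these same libraries, so their shared direction is not a separate test. Kcnip3 stood at 1.51 (20302) and -0.38 (20401). The WT pair of 20401 includes WT Cre replicate 2, which is rich in glial markers. Kcnk9 differed by -0.61 (20302) and -0.36 (20401), Kcnj14 by -0.67 and -0.32, Kcnd1 by -0.64 and -0.39, Kcnab1 by -0.58 and -0.29, Kcnt2 by 1.49 and 2.51, and Kcna6 by 0.55 and 0.49. Number 18405 held C201R libraries only among Cre libraries. Scaling by library totals only turned 4 of these differences round, to 0.20 for Kcnk9, 0.08 for Kcnj14, 0.14 for Kcnd1 and 0.26 for Kcnab1, but that scaling moved the median of all genes to 0.79, against 0.06 with TMM, so all 4 stayed below it. Of the other potassium-handling genes 0 of 31 were called (0.331% of all genes).

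**Figure D5:**
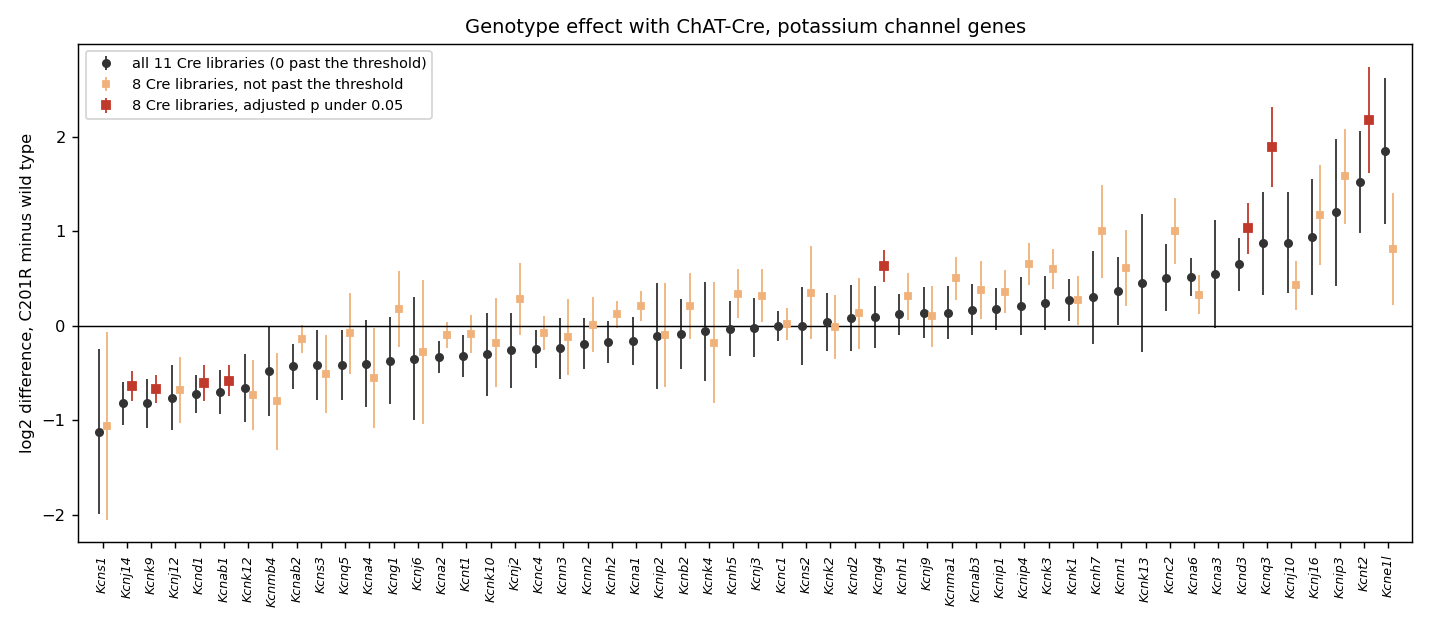
Log2 difference between C201R and WT Cre libraries for 54 tested members, ordered by size, with bars of 1 SE, from all 11 Cre libraries and from the 8 left without C201R Cre replicates 4 and 6 and WT Cre replicate 2. No member passes the threshold with 11 libraries, and 8 do with 8 libraries, among them Kcnk9 (-0.67) and Kcnt2 (2.18).

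In the background precipitates the genotype comparison called 0 of 54 members and 0 of 12588 genes with edgeR, and 1 member had an unadjusted p under 0.05, against 565 genes. It was Kcnmb4, at 4.21 ± 1.85 CPM in C201R no-Cre and 1.75 ± 0.894 CPM in WT no-Cre libraries (1.23, SE 0.53, adjusted p = 0.951). The next were Kcnj9 (-1.43, SE 0.70) and Kcne1l (-0.73, SE 0.42), which stood at -0.15 without WT no-Cre replicate 2. The difference of the Cre effects between genotypes was tested directly, as the Cre effect in C201R minus that in WT. It called 0 of 69 members (0.0207% of all genes, 0.0138% higher and 0.00691% lower). An unadjusted p under 0.05 was found for 6 members, against 1522 of 14468 genes. The smallest p was that of Kcnj11 (-5.28, SE 1.61, adjusted p = 0.333). Its level in C201R no-Cre replicate 5, the library with the fewest counts outside ribosomal RNA, was 5.28 CPM, against at most 1.40 CPM in the other C201R no-Cre libraries and at most 0.12 CPM in WT no-Cre libraries, and the difference stood at -4.05 without that library. Kcne1l (2.51, SE 0.86, adjusted p = 0.347) and Kcnj8 (4.69, SE 1.81, adjusted p = 0.393) followed. Kcnj8 stood at 2.72 without WT no-Cre replicate 3 and at 7.89 without WT Cre replicate 2. Kcne1l stood at 1.00 without C201R Cre 4 and 6 and C201R no-Cre 2, the libraries of title number 18405.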

How the data were processed

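The deposited tables hold RSEM expected counts, TPM and FPKM per gene for each library. Per the submitters' processing notes the authors used Bowtie2 2.2.0 and RSEM 1.2.12, and the genome build is not given in the sources used here. Deposited TPM and FPKM values were not used. Deposited expected counts were rounded to whole numbers. Genes had to pass filterByExpr (minimum count 10, total 15), libraries were TMM-scaled, and each comparison was fitted over all genes with edgeR 4.0.16 (R 4.3.3, quasi-likelihood, Benjamini-Hochberg, adjusted p under 0.05). Fits held the 2 groups compared, or all 23 libraries for the averaged Cre effect and the interaction. Log2 differences are Cre minus no-Cre or C201R minus WT. A gene higher in 1 precipitate lowers the share of the others, and the large share of ribosomal RNA left some libraries with few other counts. CPM are TMM-scaled over all 23 libraries, and levels between genes are CPM per kilobase of mean effective length.

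Alternatives were DESeq2 1.42.0, limma-voom with quality weights (limma 3.58.1), scaling by RLE or by library totals alone, no filter, all libraries in 1 fit, the title number as a block, leaving out libraries, and dropping ribosomal RNA genes. The members and lists were chosen with earlier results of these data known. Values are given for called members averaging at least 1 CPM (10 with the largest rise, 10 with the largest fall), the smallest p-values by genotype (6 with Cre, 3 without, 3 for the interaction), the 8 highest levels per kilobase, fixed lists, and in short for other tested members. Some genes are not reported here. Replicate pairs were checked for duplicates (lowest chi-square per degree of freedom 8.53 over 55 pairs). The scripts were tested on simulated data. Coordinates are from GENCODE M21, which matched 37607 of 38924 IDs, and promoters from RefSeq on GRCm38.p6.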

Additional observations from a re-analysis of the deposited data

Results flagged for a closer look

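In 17 of 188 groups of libraries tested on the log2(CPM + 1) scale, 1 library stood apart from the rest of its group by Dixon's criterion. The criterion is set so that about 1 of 20 groups of normally distributed values meet it. A group with counts in 1 library alone meets it whatever the count, as did Kcne4 and Kcnj8 in WT Cre. No share over all genes is given, so the 17 are not read as an excess. WT Cre replicate 2, rich in glial markers, was the high library for Kcnj10 (46.2 CPM), Kcnip3 (11), Kcnh2 (25.4), the second Kcnb2 model (0.745) and Kcnj8 (0.219). WT Cre replicate 1, the Cre library with the fewest counts beside ribosomal RNA, was high for Kcnk12 (5.95) and Kcnj11 (2.58) and low for Kcnd2 (0.793). WT Cre replicate 3 was high for Kcne4 (0.0827). C201R no-Cre replicate 5, which had the fewest such counts of all libraries, was high for Kcnn2 (9.39), Kcna3 (2.35) and Kcnn4 (7.04). The other libraries without Cre that stood apart were C201R replicate 3 for Kcnj12 (0.708) and replicate 4 for Kcnf1 (3.23), WT replicate 2 for Kcnj10 (253) and Kcne1l (29.3), and WT replicate 3 for Kcnj8 (10.0). What set these values was not tested.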

How the results depend on the processing

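Counts of called members in the Cre effects stayed within 1.5 times under every alternative run, except in WT with library totals only, which left 9 (6 higher, 3 lower, against 17 and 11). That scaling called 17 higher and 0 lower in C201R and 22 higher and 8 lower in the average, where the median of all genes moved to 1.13 and 0.39, and without ribosomal RNA genes the average held 25 higher and 19 lower. By genotype with Cre, DESeq2 called 2, limma-voom 5 and the fit without title number 18405 and WT Cre replicate 2 called 8. Leaving out 1 library gave 19 to 24 calls in C201R, 24 to 29 in WT, 40 to 46 in the average and 0 to 5 by genotype with Cre.

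Signs turned round for members that had not been called. Kcna1 stood at 0.46 (library totals), 0.06 (no filter), 0.20 (without 18405) and 0.14 (also without WT Cre replicate 2), and at -0.20 to 0.06 without 1 library, and Kcna3 at -0.09 to 0.33. With library totals Kcnc1 stood at 0.45, and by genotype with Cre Kcnd1, Kcnj14, Kcnk9 and Kcnab1 at 0.14, 0.08, 0.20 and 0.26. The annotated Kcnb2 model stood at -0.48 with both models summed.

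The title number, whose meaning the labels do not give, was fitted as a replicate block. Same-numbered libraries of different groups did not deviate together (median correlation -0.00417 over 34 pairs). With the block the average called 30 of 70 members (13 higher, 17 lower), C201R 21, WT 27, and genotype with Cre and the interaction 0, and Kcnb2 stood at -0.01, Kcnk1 at -0.08 and Kcnn2 at -0.34. Of the called members described, the block ended 16 calls: Kcnj12 (1.70, adjusted p = 0.0824), Kcng1 (1.46, adjusted p = 0.0711), Kcnk13 (-1.56), Kcnc2 (-0.68), Kcnd1 (0.73), Kcne1l (-0.46), Kcnf1 (-1.11), Kcnh1 (0.77), Kcnj8 (-1.08), Kcnk4 (1.76), Kcnma1 (0.31), Kcnn3 (1.27), Kcnq5 (-0.64), Kcns2 (1.76), Kcns3 (1.41) and Kcnt1 (-0.46). Members under about 1 CPM rest on few counts. The causes of these shifts were not tested.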
